A study of Mus musculus with 9 samples.

Results

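The mitochondrial genome transcripts were taken as every row of the count tables whose gene symbol begins with mt-, which gave 37 genes of 56691. They comprised 13 protein-coding genes, 2 rRNA genes and 22 tRNA genes, each named by the same rule in all 9 libraries, without use of any measured value. RNA-seq had been run on mouse embryoid bodies made from BVSC pluripotent stem cells, a line with a Blimp1-mVenus and a Stella-CFP reporter. The cells carried the p20 vector with doxycycline-inducible NRF1 (NRF1 OE) or the empty p20 vector (Ctrl), and all 4 groups received doxycycline at 1.5 μg/mL from day 2 to day 5. Cells with the mVenus signal (BV+, the sort for primordial germ cell-like cells) and without it (BV-, somatic cells) were then separated. This gave BV+ NRF1 OE (n = 2), BV- NRF1 OE (n = 3), BV+ Ctrl (n = 2) and BV- Ctrl (n = 2). The methods call the samples biological replicates but do not say how the cultures were separated, so the p-values below measure the spread between these libraries, part of which may be technical.

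The mouse mitochondrial genome is a compact circle that is transcribed from both strands into long precursors by Polrmt, with Tfam and Tfb2m as its initiation factors. The tRNAs lie between most mRNAs and rRNAs and are cut out of the precursors, and the mRNAs then receive short poly(A) tails, which in some of them complete the stop codon. Mitochondrial genes have no introns, so each is a single exon, and the mRNAs have next to no untranslated sequence. All 13 proteins are subunits of respiratory chain complexes or of the ATP synthase. NRF1, a nuclear transcription factor, is known to bind the promoters of many nuclear genes for mitochondrial proteins, among them factors that transcribe and process mitochondrial RNA.

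All sequences are from the GENCODE transcripts of GRCm38, with positions on chromosome M, and are written 5′ to 3′. Of the 13 mRNAs, 10 end in a whole stop codon and 3 end in a lone T. The last 30 bases of 4 of them are shown to place the transcripts that the results turn on, with the last codon or part of one in capitals: mt-Co1 (chrM:6843-6872, plus strand), mt-Co3 (chrM:9361-9390, plus strand), mt-Cytb (chrM:15259-15288, plus strand) and mt-Nd6 (chrM:13552-13581, minus strand).
mt-Co1: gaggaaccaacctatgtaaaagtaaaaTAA
mt-Co3: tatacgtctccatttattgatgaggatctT
mt-Cytb: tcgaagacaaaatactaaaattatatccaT
mt-Nd6: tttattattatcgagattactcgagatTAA

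The libraries held 13702162 to 19625460 counts, with 22921 to 25896 genes detected. Nrf1 itself was at 95.7 and 99.4 CPM (counts scaled by the TMM-adjusted library total) in BV+ NRF1 OE and at 91.1 and 90.4 in BV+ Ctrl, a log2 fold change of 0.10 that did not pass the test (adjusted p = 0.489). In BV- cells it was at 119 to 126 CPM with NRF1 OE and 99.1 and 105 in Ctrl (log2 fold change 0.26, adjusted p = 0.0718), and with NRF1 OE it was lower in BV+ than in BV- cells (-0.33, adjusted p = 0.0431). In each sort all NRF1 OE libraries lay above all Ctrl libraries, by a small margin, and the groups are called by their labels here. The sort was checked with 8 germ cell markers. None of the 8 differed between BV+ and BV- cells with the empty vector by edgeR's quasi-likelihood test, and with NRF1 OE Itgb3 was higher in BV+ cells (log2 fold change 1.24) and Dppa3 (-0.65), Nanos3 (-1.04) and Tfap2c (-0.43) were lower. Itgb3 was at 0.70 with the empty vector (adjusted p = 0.0577). Summed germ cell marker levels, scaled like the other marker sums by the plain library total, were 379 to 411 CPM in BV+ and 388 to 536 CPM in BV- cells. Because 7 of the 8 were not called higher in BV+ cells in either vector, the sorted cells are called BV+ and BV- below and not by a cell type. Of all genes, 1.10% were called higher and 0.0237% lower in BV+ cells with the empty vector, and 9.90% and 3.85% with NRF1 OE. Of 6 fibroblast markers, 5 were tested, and 3 were higher in BV+ cells with the empty vector and 4 with NRF1 OE. They summed to 447 to 688 CPM in BV+ NRF1 OE and 130 to 136 in BV+ Ctrl beside 16.6 to 23.2 in all BV- libraries. Of 6 heart muscle markers, 2 were higher in BV+ cells with the empty vector and 4 with NRF1 OE, and they summed to 118 to 175 CPM in BV+ NRF1 OE, 48.0 to 48.5 in BV+ Ctrl and 19.6 to 42.3 in BV- cells. The part of these other cell types in the mitochondrial values was not tested, and in sorted bulk RNA a change in the mix of cells and a change in RNA per cell cannot be told apart.

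Mitochondrial genes took 3.01% to 5.15% of the counts of a library. BV+ NRF1 OE libraries were at 5.15% and 3.996% (4.57% ± 0.814, SD, n = 2), and BV+ Ctrl at 4.09% and 4.51% (4.30% ± 0.296, n = 2). The Ctrl pair fell between the NRF1 OE pair. BV- NRF1 OE libraries were at 3.69%, 3.01% and 3.16% (3.29% ± 0.358, n = 3), and BV- Ctrl at 3.40% and 4.23% (3.82% ± 0.586, n = 2), again with overlap. Between the sorts, all BV+ NRF1 OE libraries lay above all BV- NRF1 OE libraries, with a log2 ratio of 0.47. The Ctrl sorts overlapped with a log2 ratio of 0.18. A log2 ratio of shares here is the difference between the group means of the log2 shares. The log2 ratio of NRF1 OE to Ctrl was 0.08 in BV+ cells and -0.21 in BV- cells. These shares sum over the chosen genes and carry no test. The exact 95% binomial intervals were at most 0.0201 percentage points wide and cover counting error only, so depth did not limit them. The highest share, BV+ NRF1 OE replicate 1, decided the sign in BV+ cells, where the log2 ratio was -0.10 without it.

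**Figure D1:**
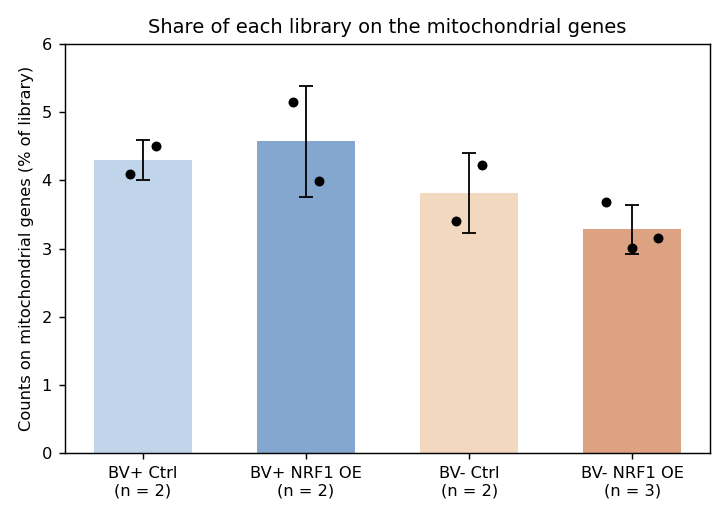
Counts on the 37 mitochondrial genes as a percentage of all counts (y axis) for the 4 groups (x axis), with bars for the group mean, error bars for the SD and points for the libraries. The 3 BV- NRF1 OE libraries sit between 3.01% and 3.69%, below both BV+ NRF1 OE libraries, and the Ctrl groups overlap each other.

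Levels differed far more between the genes than between the groups. Per length, as the deposited FPKM, mt-Co1, the catalytic subunit of cytochrome c oxidase, was highest at 8982 to 15481 FPKM (median 11491). It was followed by mt-Cytb of complex III (3291 to 6841, median 4998) and the complex I subunit mt-Nd1 (3475 to 6118, median 4980), whose ranges overlapped almost whole. The complex I subunits mt-Nd2 (2581 to 4017, median 3295), mt-Nd5 (1473 to 2467, median 1901), mt-Nd4 (1273 to 2234, median 1675) and mt-Nd6 (991 to 1767, median 1430) came next, with overlap between each of the last neighbours. In contrast, mt-Co2, mt-Atp6, mt-Co3, mt-Atp8, mt-Nd4l and mt-Nd3, 6 genes that lie together between mt-Co1 and mt-Nd4 (GRCm38, chrM:7013-10173), were at 9.46 to 130 FPKM, with no value near the 991 to 15481 FPKM of the other 7. Within this stretch the medians were 93.2 FPKM for mt-Co2, 61.7 for mt-Atp6, 58.9 for mt-Co3, 46.9 for mt-Atp8, 16.9 for mt-Nd4l and 12.8 for mt-Nd3. The rRNAs, which form the 2 subunits of the mitochondrial ribosome, were at 413 to 597 FPKM for the 16S rRNA mt-Rnr2 and 151 to 420 for the 12S rRNA mt-Rnr1, below 7 of the 13 mRNAs although rRNAs are the most abundant RNAs of mitochondria. The libraries were made from RNA selected by oligo(dT), and a level of an rRNA or tRNA here is what came through that selection.

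**Figure D2:**
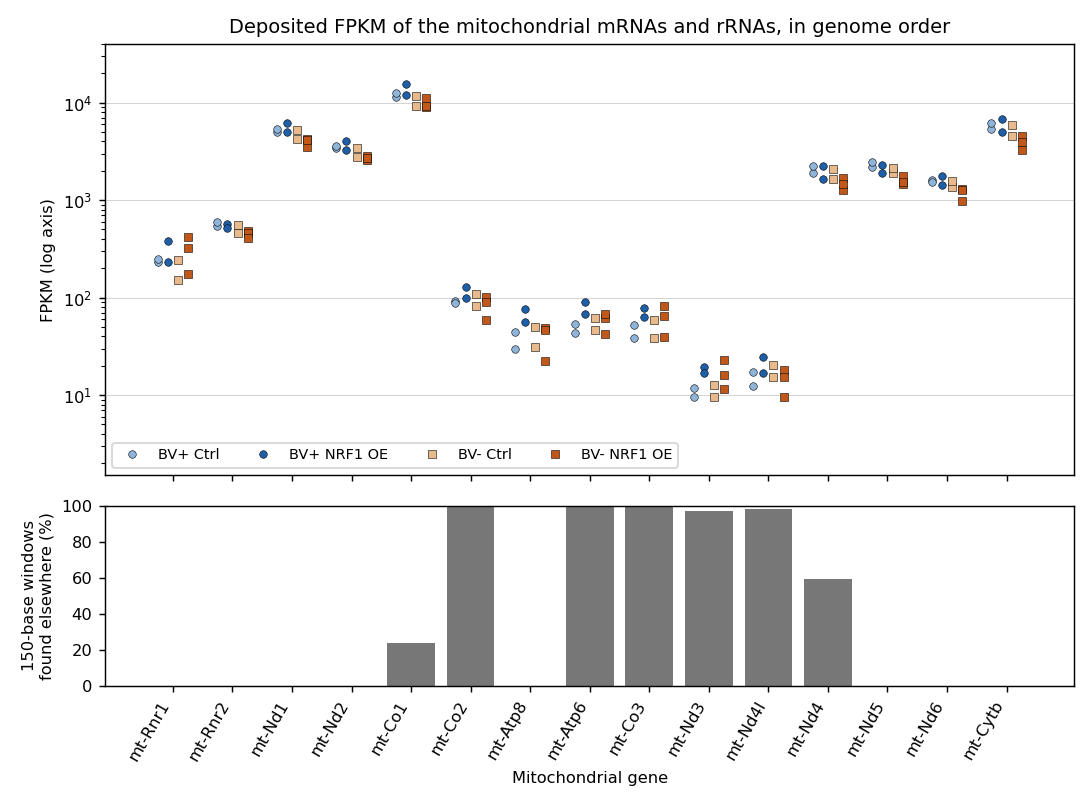
Upper panel, deposited FPKM (log axis) of the 13 mRNAs and 2 rRNAs in genome order for each library, coloured by group; lower panel, percentage of the 150-base windows of each gene found unchanged in a transcript of another gene. The 6 genes from mt-Co2 to mt-Nd4l lie between 9.46 and 130 FPKM in every library, and 5 of these 6 have 97.0% or more of their windows copied elsewhere.

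The low stretch matched a nuclear copy. An annotated run of 7 unprocessed pseudogenes on chromosome 1 (GRCm38, chr1:24611535-24616197, 4663 bases, minus strand) repeats mt-Co1 to mt-Nd4 in the same order. Bases between neighbours on the mitochondrial genome and on chromosome 1 were 140 and 140 after mt-Co1, 233 and 233 after mt-Co2, 2 and 2 after mt-Atp6, 69 and 69 after mt-Co3, and 73 and 74 after mt-Nd3. Gm28661 repeats 681 of the 684 bases of mt-Co2, Gm10925 678 of the 681 of mt-Atp6, Gm28437 783 of the 784 of mt-Co3 and Gm10222 294 of the 297 of mt-Nd4l, all with 0 mismatches. Gm28438 repeats 345 of the 348 bases of mt-Nd3 with 1 mismatch, T3C, counted from 1 at the start of the gene with the mitochondrial base named before the copy's. Gm29216 repeats the last 483 bases of mt-Co1 with 1 mismatch, A1066T, and Gm28439 the first 876 of the 1378 bases of mt-Nd4 with none.

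The stretches that show where gene and copy part are the start of mt-Nd3 (chrM:9459-9491) and of its copy Gm28438, with the mismatch in capitals, all of mt-Nd4l (chrM:9877-10173), with the bases outside Gm10222 in capitals, and the part of mt-Nd4 where Gm28439 ends (chrM:11013-11072), with the bases after its end in capitals. All lie on the plus strand of chromosome M, and the copies are written in the sense of the gene.
mt-Nd3: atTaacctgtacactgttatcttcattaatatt
Gm28438: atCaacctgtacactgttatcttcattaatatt
mt-Nd4l: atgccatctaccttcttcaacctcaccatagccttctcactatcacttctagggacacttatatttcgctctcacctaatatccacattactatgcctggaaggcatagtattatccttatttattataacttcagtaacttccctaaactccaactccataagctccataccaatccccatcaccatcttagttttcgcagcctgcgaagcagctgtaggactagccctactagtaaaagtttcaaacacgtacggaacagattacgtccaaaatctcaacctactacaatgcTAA
mt-Nd4: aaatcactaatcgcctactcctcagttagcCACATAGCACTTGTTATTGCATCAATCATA

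Among windows of 150 bases, the read length, 99.4% of those of mt-Co2, 99.4% of mt-Atp6, 99.8% of mt-Co3, 97.0% of mt-Nd3 and 97.97% of mt-Nd4l were found unchanged in another transcript, against 59.2% for mt-Nd4, 23.6% for mt-Co1 and 0% for mt-Cytb, mt-Nd1, mt-Nd2, mt-Nd5, mt-Nd6 and both rRNAs. mt-Atp8, a subunit of the ATP synthase membrane part, also had 0%. Apart from the 43 bases it shares with mt-Atp6, it lies within the 233 bases between the copied parts of mt-Co2 and mt-Atp6, whose counterpart on chromosome 1 has no transcript among those searched. How reads that fit several places were counted is not stated in the sources used here, so the levels of these 6 genes are uncertain, and their part in the low values was not tested.

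The copies held counts of their own. mt-Co2 had 1.71 to 2.01 times the counts of Gm28661, mt-Co3 1.24 to 1.77 times those of Gm28437, mt-Atp6 0.854 to 1.09 times those of Gm10925 and mt-Nd4l 0.859 to 1.40 times those of Gm10222. The gene and its copy thus had counts of the same order in every library. mt-Nd3 was lower than Gm28438, at 0.169 to 0.248 times its counts. Where the copy is partial the gene was far above it, with mt-Nd4 at 153 to 283 times the counts of Gm28439 and mt-Co1 at 764 to 1466 times those of Gm29216. With gene and copy summed, the calls of the comparisons below were 0 in NRF1 OE against Ctrl in either sort, as without summing.

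The 22 tRNA genes are 59 to 75 bases long, and reads shorter than 75 bases had been dropped. Counts were found for 3 of them, and the other 19 had 0 in all libraries, which at these depths allows up to 0.153 to 0.219 CPM. The 3 with counts, mt-Tp, mt-Tc and mt-Tn, the tRNAs for proline, cysteine and asparagine, are among the 8 encoded on the light strand (the minus strand of the reference), and 0 of the 14 heavy strand tRNA genes had a count. mt-Tp was at 493 and 320 counts in BV+ NRF1 OE, 304, 338 and 224 in BV- NRF1 OE, 210 and 262 in BV+ Ctrl, and 202 and 284 in BV- Ctrl. mt-Tc was at 28 and 26 in BV+ NRF1 OE, 3, 33 and 8 in BV- NRF1 OE, 4 and 6 in BV+ Ctrl, and 9 and 11 in BV- Ctrl, so that BV- NRF1 OE replicate 2 stood above the other BV- libraries. mt-Tn had 0 to 2 counts and was not tested.

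The tRNA genes that were tested are short enough to be shown whole, mt-Tp (chrM:15356-15422) and mt-Tc (chrM:5192-5257), both on the minus strand.
mt-Tp: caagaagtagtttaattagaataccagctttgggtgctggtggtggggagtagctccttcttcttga
mt-Tc: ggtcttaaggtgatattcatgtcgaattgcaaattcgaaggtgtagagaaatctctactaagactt

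Of the 37 genes, 17 had enough counts to be tested among 16903 genes: the 13 mRNAs, both rRNAs, mt-Tp and mt-Tc. In BV+ cells, 0 of the 17 were called between NRF1 OE and Ctrl at an adjusted p under 0.05 (edgeR's quasi-likelihood test), where 6.24% of all tested genes were called higher and 1.78% lower. At an unadjusted p under 0.05 there were 6, beside 5487 of the 16903 genes tested. DESeq2's Wald test called 1, mt-Atp6, where it called 8.9% of all genes higher and 3.56% lower. The 6 were higher with NRF1 OE: mt-Tc, mt-Atp8, mt-Nd3, mt-Atp6, mt-Co3 and mt-Tp. They also met the study's own threshold, an unadjusted p under 0.05 with a log2 fold change beyond 0.58, which 9.78% of all genes met in the higher and 7.20% in the lower direction. The median log2 fold change of the 17 was 0.37, and of all genes 0.04.

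mt-Atp6, the proton channel subunit of the ATP synthase, had the lowest adjusted p of the 17. It was at 61.5 and 46.1 CPM in BV+ NRF1 OE and 35.9 and 28.5 CPM in BV+ Ctrl, with a log2 fold change of 0.74 ± 0.23 (SE; adjusted p = 0.0635). The pairs did not overlap, and in BV- cells, at 42.8, 47.0 and 30.03 CPM against 31.8 and 42.1, they did. The log2 fold change of the neighbouring mt-Co3 was 0.70 ± 0.30 (adjusted p = 0.139), that of mt-Nd3 0.82 ± 0.30 (0.0940) and that of mt-Atp8 0.88 ± 0.34 (0.109), so 4 of the 6 genes of the low stretch were among those at an unadjusted p under 0.05. The tRNA genes mt-Tp and mt-Tc were at 0.64 ± 0.26 (adjusted p = 0.122) and 2.27 ± 0.90 (adjusted p = 0.115). The mRNAs outside the stretch were at -0.13 for mt-Nd5, -0.03 for mt-Nd4, 0.07 for mt-Nd6, 0.07 for mt-Cytb, 0.09 for mt-Nd2, 0.15 for mt-Nd1 and 0.23 for mt-Co1, with adjusted p-values from 0.318 to 0.907. The other 2 genes of the low stretch, mt-Co2 and mt-Nd4l, were at 0.37 (adjusted p = 0.280) and 0.51 (adjusted p = 0.268). All 6 genes of the stretch thus had larger values than these 7 mRNAs, and the difference between the sets was not tested. Of the chromosome 1 copies, Gm28438 was at 1.00, Gm28437 at 0.79, Gm29216 at 0.66 and Gm10925 at 0.51 (adjusted p from 0.0923 to 0.128, same test). Gm28661 was at 0.29, Gm10222 at 0.12 and Gm28439 at -0.04 (adjusted p from 0.399 to 0.930). How far the values of gene and copy reflect each other was not tested. Without BV+ NRF1 OE replicate 1, in which 11 of the 17 genes had their highest CPM, the median of the 17 was 0.01. That fit leaves 1 library in the group. The count of calls was 6 without BV- NRF1 OE replicate 2, which enters through the shared estimate of spread. In that fit 15.3% of all genes were called higher and 14.1% lower.

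In BV- cells, 0 of the 17 were called by edgeR or by DESeq2, where 10.2% of all genes were called higher and 6.98% lower by edgeR. At an unadjusted p under 0.05 there were 2, mt-Nd5 (log2 fold change -0.32 ± 0.12, adjusted p = 0.0735) and mt-Cytb (-0.37 ± 0.17, adjusted p = 0.122). Of the 16903 genes tested, 6606 had an unadjusted p under 0.05. 0 met the study's threshold, which 5.73% of all genes met as higher and 10.3% as lower. mt-Nd5 was at 3268, 2713 and 2874 CPM with NRF1 OE and at 3436 and 3920 in Ctrl, without overlap. mt-Cytb was at 5318, 3801 and 4628 CPM with NRF1 OE and 5205 and 6676 in Ctrl, which overlapped. The log2 fold change was below 0 for 11 of the 17, with a median of -0.13 beside 0.01 for all genes. The values above 0 included mt-Nd3 (0.60), mt-Co3 (0.39), mt-Tp (0.42) and mt-Rnr1 (0.68), none of which passed the test. Without BV- NRF1 OE replicate 1, 1 gene was called, beside 17.8% of all genes called higher and 16.8% lower.

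**Figure D3:**
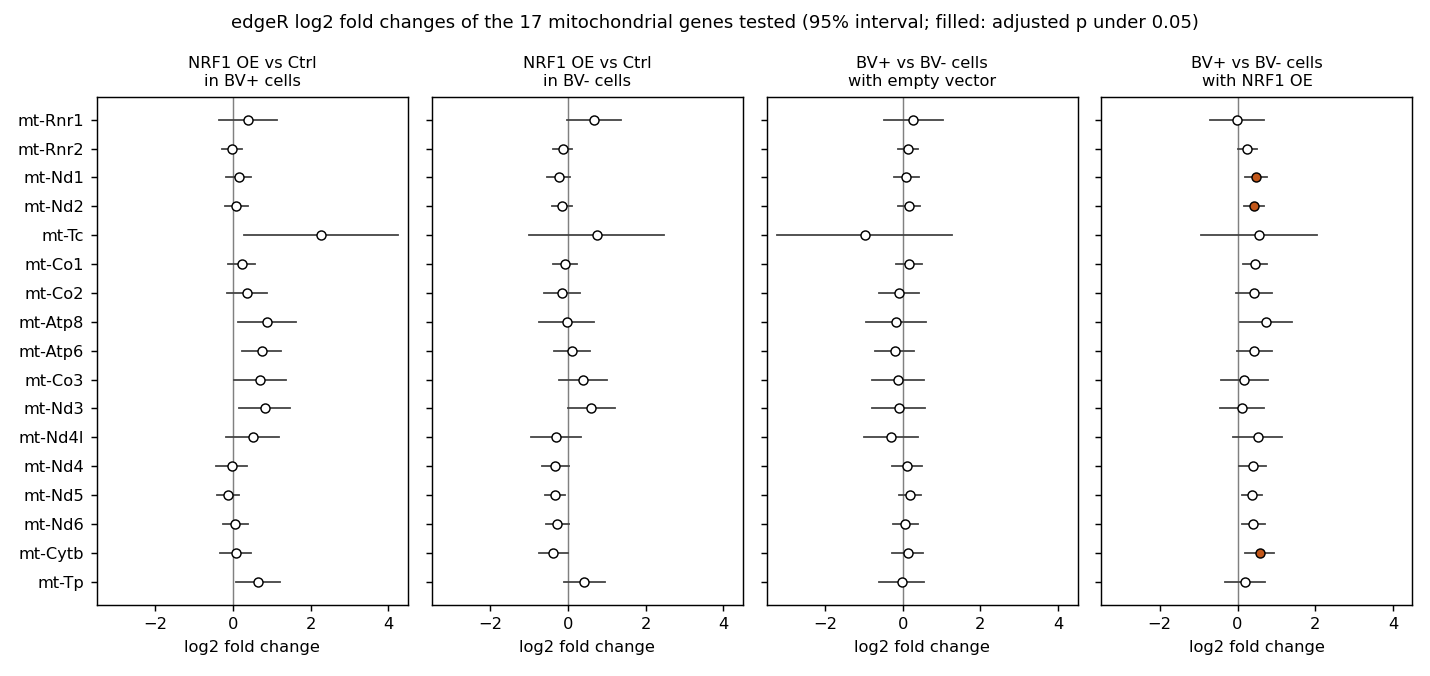
log2 fold change (x axis) with its 95% interval for each of the 17 tested mitochondrial genes (rows) in 4 comparisons (panels); filled points have an adjusted p under 0.05 by edgeR's quasi-likelihood test. The 3 filled points are mt-Nd1, mt-Nd2 and mt-Cytb in the panel for BV+ against BV- cells with NRF1 OE.

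Between the sorts with the empty vector, 0 of the 17 were called by edgeR or DESeq2, beside 1.10% of all genes called higher and 0.0237% lower in BV+ cells. An unadjusted p under 0.05 was found for 0 of the 17, beside 1314 of the 16903 genes tested. With NRF1 OE, 3 were higher in BV+ cells and 0 lower, beside 9.90% of all genes higher and 3.85% lower. Here 9 of the 17 had an unadjusted p under 0.05, beside 4766 of the 16903 genes tested. The 3 were the complex I subunits mt-Nd1 (chrM:2751-3707, log2 fold change 0.48 ± 0.13, adjusted p = 0.0341) and mt-Nd2 (chrM:3914-4951, 0.42 ± 0.12, adjusted p = 0.0385), and mt-Cytb (chrM:14145-15288, 0.57 ± 0.17, adjusted p = 0.0441). mt-Nd1 was at 5920 and 4780 CPM in BV+ and 4136, 3357 and 4053 in BV- cells. mt-Nd2 was at 4216 and 3407 CPM in BV+ and 2969, 2704 and 2901 in BV- cells. For mt-Cytb the values were 7913 and 5697 CPM in BV+ and 5318, 3801 and 4628 in BV- cells. None of these 3 mRNAs has a 150-base window in another transcript, and for all 3 every BV+ library lay above every BV- library. mt-Co1 at 24185 and 18239 CPM in BV+ against 17586, 14008 and 14634 in BV- cells showed the same order without passing the test (0.46 ± 0.14, adjusted p = 0.0508), and mt-Nd5 and mt-Nd6 were at 0.37 (adjusted p = 0.0588) and 0.40 (adjusted p = 0.0730). The median of the 17 was 0.42, and of all genes -0.005. The 3 calls were lost without BV- NRF1 OE replicate 3, where 7.8% of all genes were called higher and 1.17% lower. They were also lost without BV+ NRF1 OE replicate 1 or either BV+ Ctrl library, which leaves 1 library in that group. Calls over all genes fell in those fits too, and the BV+ Ctrl libraries enter through the shared estimate of spread. The 3 calls were also lost when the fit held only the 5 NRF1 OE libraries, where 7.32% of all genes were called higher and 0.483% lower. Without BV- NRF1 OE replicate 1, 6 were called, beside 11.4% and 7.45% of all genes. Without BV- NRF1 OE replicate 2, 9 were called, beside 11.8% and 3.03%.

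The NRF1 OE effect was then compared between BV+ and BV- cells. For this difference 0 of the 17 were called by edgeR or DESeq2, as 0% of all tested genes were called by edgeR. An unadjusted p under 0.05 was found for 0 of the 17, beside 932 of the 16903 genes tested. The difference was above 0 for 16 of the 17, the exception being mt-Rnr1 at -0.28, with a median of 0.30 beside 0.02 for all genes. A different effect of NRF1 OE on mitochondrial transcripts in the 2 sorts was therefore not shown. The value of mt-Tc, 1.52 ± 1.23, had the largest SE of the 17.

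Relative to each other, the abundant mRNAs held nearly fixed proportions. mt-Co1 took 44.6% of the mitochondrial counts on average (42.4% to 46.7%), mt-Cytb 14.7% (12.5% to 15.9%), mt-Nd1 11.6%, mt-Nd5 9.16%, mt-Nd2 8.46% and mt-Nd4 6.31%, in counts and not per length. mt-Co1 was at 46.5% and 45.8% in BV+ NRF1 OE, 46.7%, 46.1% and 44.8% in BV- NRF1 OE, 43.4% and 42.9% in BV+ Ctrl, and 42.4% and 42.6% in BV- Ctrl. All 5 NRF1 OE libraries thus had a larger share on mt-Co1 than all 4 Ctrl libraries. For mt-Nd5 the order was the opposite, with 8.09% to 8.93% in the NRF1 OE libraries and 9.29% to 10.2% in Ctrl, and likewise for mt-Nd4, with 5.75% to 6.32% and 6.36% to 6.86%. These shares sum to a whole, so that they are not independent of each other, and no test was run on them. mt-Nd6, the only mRNA of the light strand, shares 14 bases with mt-Nd5 on the other strand. Its ratio to mt-Nd5 was 0.178 to 0.244 in counts, and since the strand setting of the counting is not given, reads of mt-Nd6 and of the heavy strand precursor opposite to it cannot be told apart.

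The rRNAs did not move together. mt-Rnr2 was at 916 and 818 CPM in BV+ NRF1 OE, 787, 729 and 676 in BV- NRF1 OE, 838 and 922 in BV+ Ctrl, and 727 and 872 in BV- Ctrl. mt-Rnr1 was at 371 and 220 CPM in BV+ NRF1 OE, 316, 405 and 173 in BV- NRF1 OE, 219 and 233 in BV+ Ctrl, and 142 and 230 in BV- Ctrl. BV+ NRF1 OE replicate 1 and BV- NRF1 OE replicates 1 and 2 were the 3 libraries highest in mt-Rnr1, and mt-Rnr2 did not follow this order. Their ratio of mt-Rnr1 to mt-Rnr2 counts was 0.402 to 0.555, against 0.196 to 0.270 in the other 6. The same 3 libraries were highest in Rn7sk, the 7SK RNA, a nuclear RNA made without a poly(A) tail, at 4.12, 9.39 and 11.9 CPM beside 0.630 to 2.19 CPM in the others. They were also highest in Rpph1, the RNA of RNase P, at 4.48 to 11.5 CPM beside 0.693 to 2.52. In BV- cells Rn7sk (log2 fold change 2.86), Rpph1 (2.37) and Rn7s2 (3.51 ± 1.04) were called higher with NRF1 OE, and in BV+ cells none of these 3 was. Rn7s2 was near the floor in BV- cells, at 14, 17 and 3 counts with NRF1 OE and 1 and 1 in Ctrl. Replication histone genes, whose mRNAs lack a poly(A) tail, summed to 102 to 140 CPM in the NRF1 OE and 71.1 to 84.3 CPM in the Ctrl libraries, and of 65 listed and 30 tested, 3 were higher in BV+ and 5 in BV- cells and 0 lower, beside 6.24% and 10.2% of all genes called higher. The part of this difference in the mitochondrial values was not tested.

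Leaving the 3 libraries out together, which was chosen after seeing the data and leaves 1 library in each NRF1 OE group, put mt-Rnr1 at -0.06 in BV+ and -0.12 in BV- cells on the log2 scale, from 0.39 and 0.68. In BV- cells 8 of the 17 were then called, all lower, where 17.1% of all genes were called higher and 15.8% lower. In BV+ cells mt-Tc and mt-Atp6 were called higher and mt-Nd5 lower, beside 9.04% and 9.70% of all genes. With 1 library in a group these calls assume that it varies like the other groups.

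**Figure D4:**
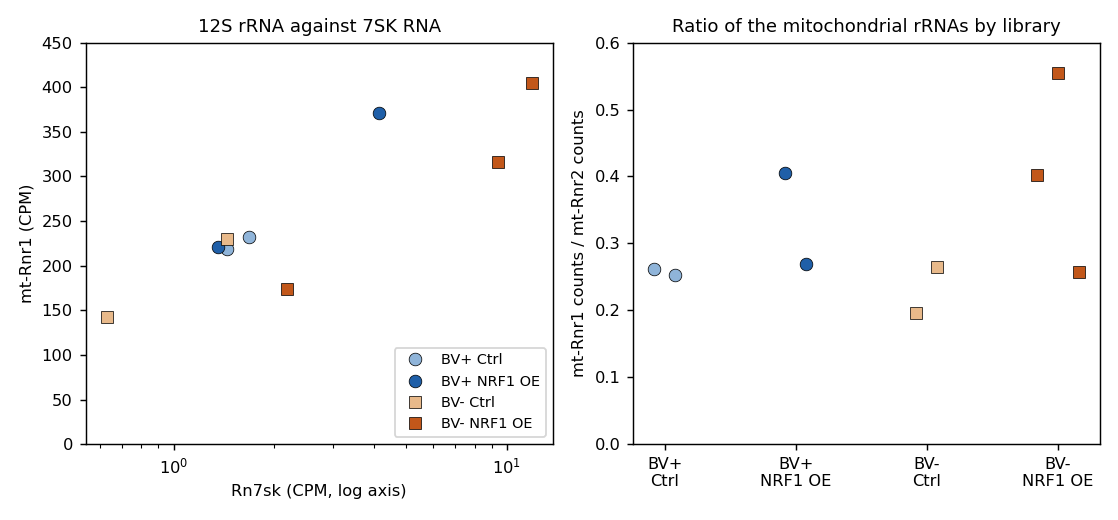
Left, CPM of mt-Rnr1 (y axis) against CPM of Rn7sk (x axis, log axis), 1 point for each library; right, ratio of mt-Rnr1 to mt-Rnr2 counts by group. The 3 libraries with Rn7sk at 4.12 CPM or more are those with an mt-Rnr1 to mt-Rnr2 ratio of 0.402 or more.

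The libraries also differed in base composition. Over 14313 expressed genes, the rank correlation (Spearman's rho) between a gene's GC content and its deviation from the mean of the libraries was -0.465 to -0.560 in the 4 Ctrl libraries and 0.00650 to 0.667 in the 5 NRF1 OE libraries. This is a description across genes, which are not replicates. The mitochondrial mRNAs have a GC content of 31.9% to 41.1%. When a smooth trend in GC content and length was taken out of each library, all 17 log2 fold changes of NRF1 OE against Ctrl were above 0 in both sorts. In BV+ cells 3 were then called, mt-Co1 (0.50), mt-Atp8 (1.12) and mt-Atp6 (1.01), with a median of 0.59, where 8.66% of all genes were called higher and 4.33% lower. In BV- cells 0 were called, where 6.96% of all genes were called higher and 1.75% lower. There mt-Nd5 went from -0.32 to 0.18, mt-Nd4 from -0.32 to 0.16 and mt-Cytb from -0.37 to 0.02. The sign of the BV- values therefore depended on this adjustment. The higher mt-Nd1 (0.38) and mt-Cytb (0.48) in BV+ than in BV- cells with NRF1 OE were called with it as well, and mt-Nd2 was not. In that comparison 10.5% of all genes were called higher and 18.2% lower. GC content and vector cannot be told apart in these libraries.

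**Figure D5:**
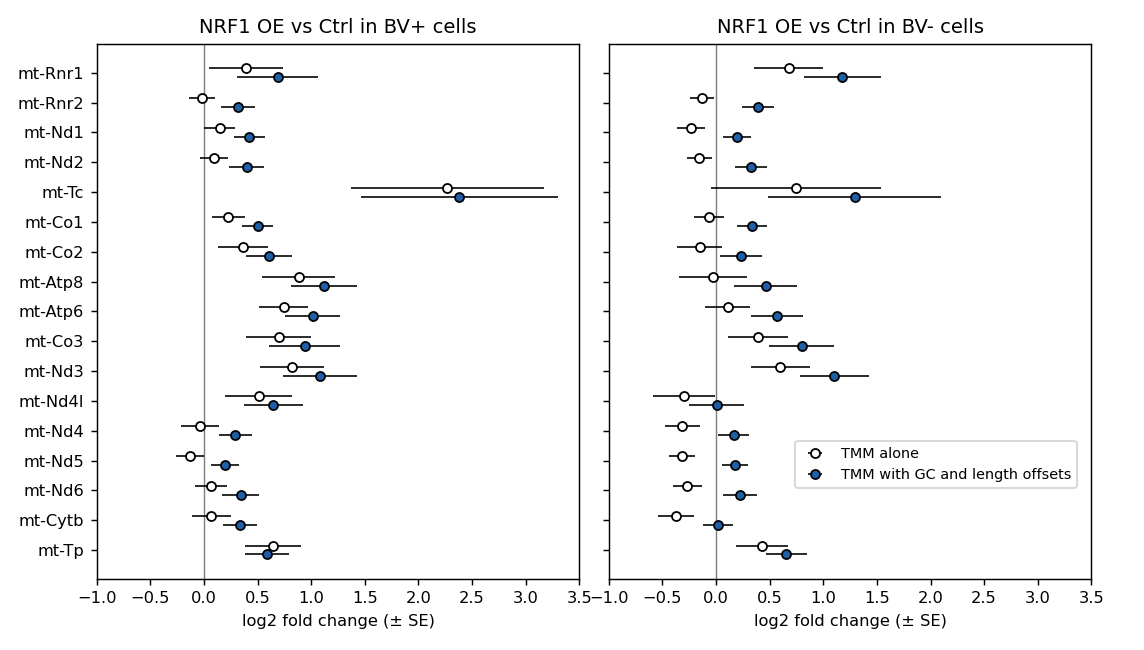
log2 fold change of NRF1 OE against Ctrl (x axis, error bars SE) of the 17 tested genes (rows) in BV+ and BV- cells, with TMM scaling alone (open) and with GC and length offsets added (filled). In BV- cells mt-Nd5 moves from -0.32 to 0.18 and mt-Rnr2 from -0.13 to 0.39, and all filled points lie above 0.

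The nuclear genes for transcription, processing and decay of mitochondrial RNA, 35 of which were listed and tested, were examined alongside. In BV+ cells 1 was higher with NRF1 OE, Hsd17b10, a subunit of mitochondrial RNase P (log2 fold change 0.56 ± 0.14, adjusted p = 0.0393), and 0 were lower, beside 6.24% of all genes called higher and 1.78% lower. An unadjusted p under 0.05 was found for 7, beside 5487 of the 16903 genes tested. In BV- cells 5 were higher and 2 lower, beside 10.2% and 6.98% of all genes, so that neither count stood far from the share over all genes. Hsd17b10 was higher there too (0.58 ± 0.13, adjusted p = 0.0317), at 79.7, 88.5 and 71.4 CPM against 51.9 and 54.8 in Ctrl. The other higher genes were Fastk (0.52) and Tbrg4 (0.46), of the FASTK family of mitochondrial RNA-binding proteins, the rRNA methyltransferase Mrm3 (0.56) and Polg, the mitochondrial DNA polymerase (0.44).

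The 2 lower genes were initiation factors, and neither call held with the GC and length offsets. With the offsets 6.96% of all genes were called higher and 1.75% lower in BV- cells, from 10.2% and 6.98%. Tfam, which also packages mitochondrial DNA, was at 97.3, 86.8 and 89.7 CPM in BV- NRF1 OE and 117 and 115 in BV- Ctrl (log2 fold change -0.34 ± 0.10, adjusted p = 0.0435). Tfb2m was at 7.7, 6.0 and 6.0 CPM against 9.8 and 9.6 (-0.55 ± 0.16, adjusted p = 0.0435). In BV+ cells they were at -0.15 and -0.46 without passing the test. With the offsets, Tfam was at -0.01 (adjusted p = 0.953) and Tfb2m at -0.19 (adjusted p = 0.428) in BV- cells. Of the higher genes, Tbrg4, Fastk and Mrm3 were not called with the offsets, and Hsd17b10 (0.40) and Polg (0.48) were, and Slirp (0.64) was among those added. Without the offsets, all NRF1 OE libraries of both sorts lay below all Ctrl libraries in CPM of Tfam and of Tfb2m. Polrmt, the RNA polymerase, was at 0.12 in BV+ and 0.38 in BV- cells (adjusted p = 0.0563), and the elongation factor Tefm at -0.04 and -0.05.

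Of the processing factors, the 3′ tRNA endonuclease Elac2 was at 0.08 in BV+ and 0.29 in BV- cells, and Trmt10c, the RNase P subunit that methylates tRNA, at -0.12 and -0.52 (adjusted p = 0.0524 in BV- cells). Of the factors for mRNA stability and tails, Lrpprc was at -0.35 and -0.46, its partner Slirp at 0.27 and 0.29, the poly(A) polymerase Mtpap at -0.30 and -0.34 and the exoribonuclease Pnpt1 at -0.36 and -0.49, none past the test of all 9 libraries without offsets. The median of the 35 was -0.07 in BV+ and -0.04 in BV- cells. Between the sorts, 0 were called with the empty vector by edgeR and 0 by DESeq2. There 2 had an unadjusted p under 0.05, beside 1314 of the 16903 genes tested. With NRF1 OE 4 were lower in BV+ cells, Mrm1 (-0.56), Polg (-0.47), Tbrg4 (-0.39) and Supv3l1 (-0.37), beside 9.90% of all genes called higher and 3.85% lower. With the offsets 13 were lower, where 18.2% of all genes were. The BV- calls moved with single libraries, from 0 without BV- NRF1 OE replicate 3 to 17 without BV- NRF1 OE replicate 1. All genes moved too, with 0.16% called higher and 0.0474% lower without replicate 3, and 17.8% and 16.8% without replicate 1. The BV+ call was lost without BV- NRF1 OE replicate 3, where 2.84% of all genes were called higher and 1.1% lower. It was also lost without BV+ NRF1 OE replicate 1, which leaves 1 library in that group, as were the calls over all genes. Neither the BV+ nor the BV- calls held without any 1 of the Ctrl libraries, which leaves 1 library in that group. Calls over all genes fell there as well, so such fits cannot show whether the loss is particular to these factors.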

How the data were processed

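The authors sorted the cells, selected poly(A) RNA with oligo(dT) from 1 μg of total RNA and sequenced paired-end reads of 150 bases, dropping trimmed reads under 75 bases. The submitters' processing notes name HISAT2 2.0.1 and HTSeq 0.6.1. Strand and multi-mapping settings are not given in the sources used here. Each deposited file holds raw counts per gene and the authors' FPKM, which were used for levels between genes. The counts of all 9 libraries were tested with edgeR 4.0.16 (quasi-likelihood, TMM, filterByExpr, Benjamini-Hochberg over 16903 genes) in R 4.3.3 with limma 3.58.1, with 1 mean per group (biological coefficient of variation 0.129). A call is an adjusted p under 0.05, and the SE is the log2 fold change over the root of its F statistic. CPM is relative to TMM-adjusted library totals, and shares, floors and summed marker levels to the plain totals. GC trends were fitted on log2 CPM with a prior count of 2. Comparisons share libraries with each other. Alternatives were DESeq2 1.42.0, other scalings and filters, GC and length offsets (16662 of the tested genes), a replicate block, the compared groups alone and leaving out libraries. The code was tested on simulated counts. Copies were sought among 141730 other GENCODE transcripts of GRCm38, with alignments of at least 100 bases and 85% identity.

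The members and lists were chosen with earlier results of these data known. The mRNAs, the rRNAs, the 3 tRNA genes with the highest mean CPM, 10 preset factors, factors called in NRF1 OE against Ctrl, listed pseudogenes with counts and RNAs without poly(A) tails are named. The factors called between the sorts, Mrm1 and Supv3l1, fall outside that rule and were chosen after their values were seen. The targeted gene, germ cell, fibroblast and heart muscle markers were read beside them.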

Additional observations from a re-analysis of the deposited data

How the results depend on the processing

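The fit of all 9 libraries was repeated with 1 choice changed at a time, except that a replicate block was also combined with the GC and length offsets and that the crossed block used the 4 Ctrl libraries alone, and direction was compared where a log2 fold change exceeded its SE. The log2 ratio of the mitochondrial share for NRF1 OE went from 0.08 to 0.01 in BV+ cells and from -0.21 to -0.32 in BV- cells without copied, rRNA and tRNA genes, and changed less with the protein-coding genes alone or with a denominator without mitochondrial genes, all by less than 1 SD between libraries. Without single libraries its log2 ratio was -0.10 to 0.26 for NRF1 OE in BV+ cells, -0.37 to -0.06 in BV- cells, and 0.02 to 0.34 (empty vector) and 0.29 to 0.65 (NRF1 OE) between the sorts. The share of all genes called moved too, and is given here and above for many of the alternative fits. With only the compared groups, NRF1 OE against Ctrl gave 12.9% higher and 14% lower in BV+ cells and 0% in BV- cells. Without a filter these shares were 5.29% and 5.09% in BV+ and 5.91% and 7.34% in BV- cells. DESeq2 gave 12.1% and 11.7% in BV- cells. A replicate block gave 0.0118% and 0.00592% in BV+ and 0% in BV- cells. With the offsets added, the block gave 4.15% and 1.78% in BV+ and 0.03% and 0.012% in BV- cells. The offsets alone gave 6.96% and 1.75% in BV- cells. In BV+ cells total counts gave 4.15% and 1.79%, and upper-quartile factors 4.58% and 3.03%. A mean of at least 10 counts gave 9.88% and 1.77% there, and summed copies 9.7% and 1.73%. Called mitochondrial genes for NRF1 OE against Ctrl in BV+ cells went from 0 to 1 with DESeq2, 6 without a filter, 6 with only the compared groups, 3 with GC and length offsets, 1 with the offsets and a replicate block, 3 without the 3 libraries highest in Rn7sk, and 0 to 6 without single libraries. In BV- cells they went from 0 to 5 without a filter, 8 without those 3 libraries and 0 to 1 without single libraries. Between the sorts with the empty vector 0 became 5 in a crossed replicate block of the 4 Ctrl libraries, whose same-numbered deviations correlated at -0.24. That fit called 7.92% of all genes higher and 4.98% lower, from 1.1% and 0.0237%. With NRF1 OE the 3 calls became 5 on total counts, 10 without a filter, 5 with a mean of at least 10 counts, 0 with only the compared groups, 0 with a replicate block with or without the offsets, 6 without those 3 libraries, 5 with copies summed and 0 to 9 without single libraries. For the difference of effects 0 were called in each alternative run.

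Called nuclear factors for NRF1 OE against Ctrl in BV+ cells went from 1 to 0 on total counts, with upper-quartile factors or with a replicate block, 2 with DESeq2, no filter, a mean of at least 10 counts, the offsets or copies summed, 6 with only the compared groups, 5 without the 3 libraries and 0 to 6 without single libraries. In BV- cells 7 became 11 with DESeq2, 0 with only the compared groups, 0 with a replicate block with or without the offsets, 20 without the 3 libraries and 0 to 17 without single libraries, and the offsets alone gave 6, all higher, from 5 higher and 2 lower. Between the sorts 0 became 1 with only the compared groups (empty vector), and 4 became 2 on total counts, with a mean of at least 10 counts or with copies summed, 0 with only the compared groups or a replicate block, 13 with the offsets, 10 with both, 8 without the 3 libraries and 0 to 8 without single libraries.

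Some values reversed. In BV- cells, the offsets without and with the replicate block put mt-Rnr2 at 0.39 and 0.46, mt-Nd2 at 0.33 and 0.32, mt-Nd4 at 0.16 and 0.18, mt-Nd5 at 0.18 and 0.21, mt-Nd6 at 0.22 and 0.31, and the offsets alone mt-Nd1 at 0.19. In BV+ cells they put Tbrg4 at -0.13 in either form. mt-Co3 in BV- cells was at -0.27 without the 3 libraries. The cause was not tested. Replicate numbers are only shared, with no batch in the labels (same-numbered correlations -0.57 to 0.52), so the block does not pair samples. A library left alone in its group is assumed to vary like the others. The fit of only the compared groups was not run for the difference of effects, which uses all groups. Between the sorts with NRF1 OE, 10.4% of all genes were called higher and 2.93% lower on total counts. These shares were 6.38% and 2.11% without a filter and 5.73% and 0.562% with a replicate block. With the block and the offsets they were 7.87% and 9.19%. A mean of at least 10 counts gave 10.5% and 2.93%, and summed copies 10.4% and 2.74%. With the empty vector, the compared groups alone gave 4.45% and 1.07%. Summing copies, leaving out the 3 libraries and the crossed replicate block were not planned and were chosen after seeing the data. With 2 or 3 libraries per group, the spread between libraries and not depth limits the tests of the abundant mRNAs. For genes with few counts, such as mt-Tc at 3 to 33, depth limits them too.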

Other observations

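Listed pseudogenes outside chromosome 1 also held counts. Gm13340 on chromosome 2 (GRCm38, chr2:22588103-22589647), which repeats all of mt-Co1 at 97.6% identity, was at 261 and 175 counts in BV+ NRF1 OE, 109, 108 and 69 in BV- NRF1 OE, 93 and 102 in BV+ Ctrl, and 114 and 159 in BV- Ctrl. It was called higher with NRF1 OE in BV+ cells (log2 fold change 1.01, adjusted p = 0.0485, edgeR's quasi-likelihood test) and higher in BV+ than in BV- cells with NRF1 OE (0.90, adjusted p = 0.0344). Its neighbours Gm13341 and Gm13339, which repeat mt-Co2 and part of mt-Nd2, held 10 to 29 and 2 to 9 counts. Gm10221 on chromosome 5 (chr5:24581554-24581862), which was in the same list but had no alignment of at least 100 bases at 85% identity to a mitochondrial gene and is not counted as a copy, was at 292 to 403 counts in the NRF1 OE and 216 to 276 in the Ctrl libraries and was called higher with NRF1 OE in BV- cells (0.61, adjusted p = 0.0317). Of the 11 listed pseudogenes 10 were tested.

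The other 5 marker lists were read between the sorts with NRF1 OE, where 9.90% of all genes were higher and 3.85% lower in BV+ cells. Of 7 naive pluripotency markers, 1 was higher and 2 were lower in BV+ cells. Of 4 mesoderm markers tested 2 were higher, of 5 endoderm markers 1 was lower, of 5 neuroectoderm markers 2 were higher and 1 lower, and of 3 erythroid markers 0 were called.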
